A study of Homo sapiens with 7 samples.

Results

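The genes described here encode the receptors for gamma-aminobutyric acid (GABA) and for glutamate: all autosomal genes on the arrays whose names begin with GABR, GABBR, GRIA, GRIK, GRIN or GRM, the last pair followed by a digit. The names gave 41 receptor genes of 23738 autosomal genes tested. Membership was set by name alone, but the group was chosen with earlier results of these data known. The 4 X-linked genes (GABRA3, GABRE, GABRQ and GRIA3) were left out by the rule, and 2 antisense names that matched it, GRM5-AS1 and GRM7-AS3, were kept apart from the receptors. The 41 genes carried 753 probes on the larger array design and 224 probes on the smaller. GABRD, GRIN3B, GRM2 and GRM6 rested on a single probe each, while GRM7 had 70.

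GABA is the main inhibitory and glutamate the main excitatory transmitter of the brain. GABA-A receptors are chloride channels built from alpha, beta, gamma, delta, pi or rho subunits, and GABA-B receptors act through G proteins. Glutamate opens AMPA, kainate and NMDA channels and also binds G protein-coupled metabotropic receptors. Cells copy their genome in a set order during S phase. Gene-rich, open chromatin tends to be copied early and compact chromatin, in which many long neuronal genes lie, tends to be copied late. The order differs in part between cell types.

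The study set DNA made in early S phase against DNA made in late S phase on 2-colour Agilent arrays in 2 human lines, K562 from chronic myeloid leukaemia and U2OS from osteosarcoma. All cells received bromodeoxyuridine at 50 µM for 2 h, and 80000 fixed cells were sorted by DNA content into both fractions. The new DNA was captured with an antibody, amplified, and labelled with Cy3 (early) or Cy5 (late), in that orientation on all 7 arrays. K562 was measured once after a new sorting method, once after the old method and once on an array labelled 44k, whose sorting method the titles do not give. U2OS was measured on 2 arrays labelled manual and 2 labelled automated, with no word on which step that was. No gene was altered in any group, and neither line is neural. Nothing in the labels says that the arrays came from separate cultures, so p-values measure the spread between arrays, which may be technical.

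All values are log2(early/late), centred on the median autosomal probe of each array: positive values mean earlier than that probe and negative values later. A gene was called early, late or different between lines at an adjusted p under 0.05 in the limma fit over all genes. Late-channel spots well above background made up 41.4% to 97.0% of autosomal spots on the 6 larger arrays but 9.0% on the array labelled 44k, where 49.5% carried a substitute value set by the scanner software. Early-channel spots well above background ranged from 45.6% (old-sorting K562) to 94.5%. The number of arrays limits the precision. The late control of the protocols, DPPA2, was negative on all 7 arrays (-0.89 to -2.55). Total signal at CDKN2A and CDKN2B, a locus deleted in K562, was -2.84 and -2.0 relative to the array median (log2) on the larger K562 arrays, and -1.07 to -0.69 on the U2OS arrays. On the array labelled 44k it was -1.25, lower than on every U2OS array but closer to them than to the other K562 arrays. Without that array, the same 7 receptor genes were called different between the lines, 28 were again called early or late in K562, and the K562 median was -1.26.

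Sequences of 4 probes are shown because they come from receptor genes called different between the lines, 2 of them earlier in K562 and 2 later. Each is the probe nearest the middle of its gene's probes, read from the deposited tables, whose coordinates are on hg19. The strand is not stated there. Capitals mark a CpG. In the order printed, they lie at chr15:27499128-27499187, chr7:86394499-86394558, chr11:120698351-120698410 and chr6:89915932-89915991.
GABRG3: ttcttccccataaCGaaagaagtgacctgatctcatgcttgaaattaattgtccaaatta
GRM3: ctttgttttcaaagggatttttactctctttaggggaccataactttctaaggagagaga
GRIK4: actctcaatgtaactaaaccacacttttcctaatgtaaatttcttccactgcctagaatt
GABRR1: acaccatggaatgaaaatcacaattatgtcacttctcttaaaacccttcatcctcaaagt
On the 6 larger arrays the GABRG3 probe averaged 0.50 in K562 and -2.87 in U2OS, and the GRM3 probe 0.16 and -2.81. The GRIK4 probe ran the other way, with -2.62 in K562 and 0.28 in U2OS. These 3 probes thus showed the same order of the lines as the means of their genes. GC content was 33.3% in the GRIK4 probe and 36.7% in that of GRM3. A CpG was present in 1 of the 4, that of GABRG3. Whether a probe lies in an exon or an intron was not analysed here.

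Late replication was the most frequent call among the receptor genes in both lines. In K562, 23 of the 41 were called late, or 56.1%, beside 20.2% of all genes tested. In U2OS, 26 were called late, or 63.4%, beside 20.2% again. Early calls went to 5 receptor genes in K562 (background 42.4%) and 9 in U2OS (background 53.7%). The K562 early count was 3 without the first manual U2OS array or without the second automated one, and 2 with normexp background correction. It was also 3 without the new-sorting K562 array, but there 38 receptor genes were tested. GABRD, called early in the main fit, was not among them. Both lines called the same 21 genes late, where 13% of all genes were late in both. The median receptor gene stood at -1.12 in K562 and -1.25 in U2OS, and the median of all genes at 0.63 and 0.77. The mean probe lay at -0.26 in K562 and -0.17 in U2OS, and centring on it left the receptor medians negative, at -0.87 and -1.09.

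**Figure D1:**
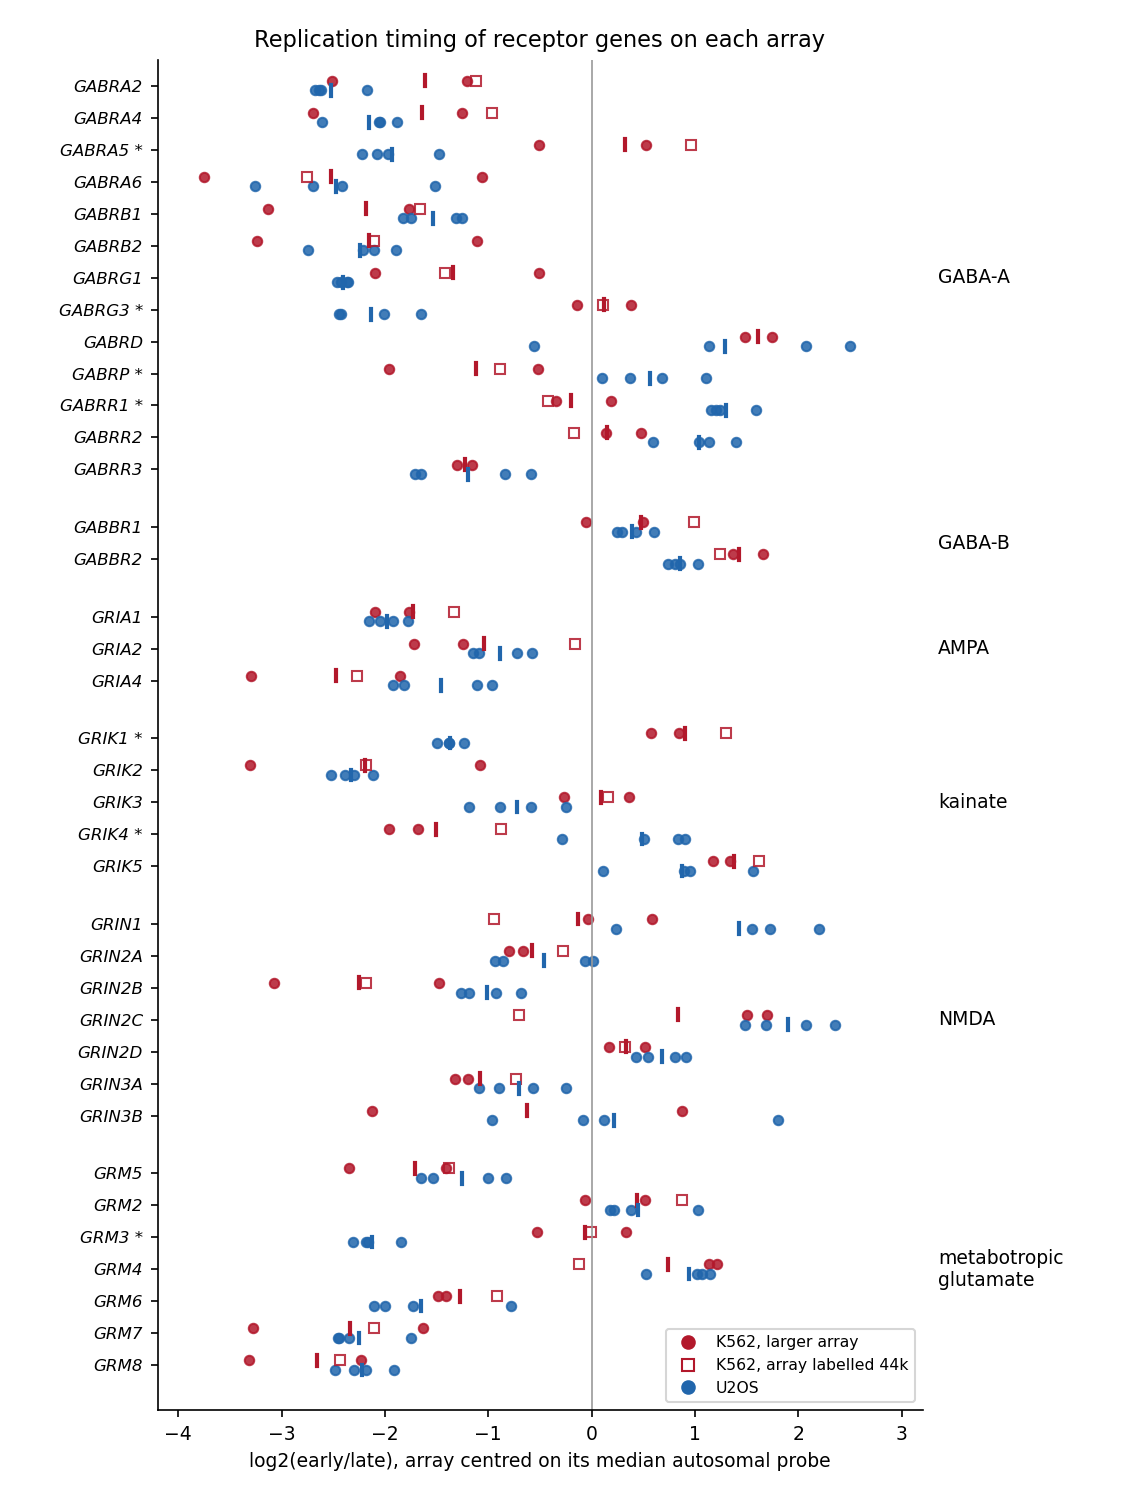
Each point is log2(early/late) of a receptor gene reported here on one array, grouped by receptor class, with red for K562, blue for U2OS, open squares for the array labelled 44k and bars for the mean of each line. An asterisk marks the 7 genes with an adjusted p under 0.05 between the lines. Most genes of the GABA-A, AMPA and metabotropic classes lie left of 0 in both lines.

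The medians of other genes of these synapses were positive. Among 54 measured genes for transmitter synthesis, transport, scaffolding and auxiliary subunits, 14 were called late in K562 and 11 in U2OS, and 25 and 30 were called early. Their medians were 0.72 in K562 and 0.75 in U2OS. Voltage-gated ion channel genes (57), which also include long neuronal genes, had medians of 0.31 and 0.50, with 19 and 18 called late. Ribosomal protein genes (143), which every cell uses, had medians of 0.86 and 0.88, with 6 late in each line. These are descriptions, and no test compared the lists.

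The GABA-A class held the most late genes. Of 16 genes, 11 were called late in K562 and 12 in U2OS, with medians of -1.48 and -2.08. Alpha subunits form part of the benzodiazepine and GABA sites. GABRA2, GABRA4 and GABRA6 were late in both lines, with means from -1.61 to -2.52 in K562 and from -2.15 to -2.53 in U2OS. GABRA2 stood at -1.61 ± 0.78 (SD, n = 3) for K562 and -2.53 ± 0.24 (SD, n = 4) for U2OS. GABRA6, a subunit of cerebellar granule cells, stood at -2.52 ± 1.36 (SD, n = 3) and -2.47 ± 0.73 (SD, n = 4), a wide spread for a gene with 2 probes.

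Beta subunits are needed for assembly and for the GABA site. GABRB1 and GABRB2 were late in both lines. GABRB1, a beta subunit with 33 probes, read -3.13 (new sorting), -1.77 (old sorting) and -1.66 (labelled 44k) on the K562 arrays, and -1.26 and -1.31 on the manual U2OS arrays and -1.83 and -1.75 on the automated ones. Values overlapped between the lines. GABRB2 read -3.23 (new sorting), -1.11 (old sorting) and -2.11 (labelled 44k) on the K562 arrays, and -1.90 and -2.21 on the manual U2OS arrays and -2.75 and -2.10 on the automated ones. Here too the lines overlapped, and the spread among K562 arrays was wide, at -2.15 ± 1.06 (SD, n = 3).

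Gamma subunits anchor receptors at synapses. GABRG1 was late in both lines, at -1.34 ± 0.79 (SD, n = 3) for K562 and -2.40 ± 0.05 (SD, n = 4) for U2OS, and its lines did not overlap. The difference of 1.06 ± 0.38 (SE; adjusted p = 0.1) was not called. GABRG3 was called late in U2OS alone, a difference that was itself called (below).

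The remaining GABA-A genes were mixed. GABRD, the subunit of receptors outside synapses, read 1.75 (new sorting) and 1.48 (old sorting) on the K562 arrays and had no probe on the array labelled 44k. Its K562 mean of 1.61 was the highest of the receptor genes, but GRIN2C stood at 1.6 on the same 2 arrays. GABRD read 1.14 and -0.55 on the manual U2OS arrays and 2.50 and 2.07 on the automated ones. The second manual array stood apart from the others. The single probe of GABRD was well above background in the late channel on neither K562 array and in the early channel on 1 of the 2, so it gives a bound on 1 array and no level on the other. On the U2OS arrays 50% of its early spots and 25% of its late spots were well above background. GABRR3, a rho subunit, was late in both lines at -1.23 ± 0.10 (SD, n = 2) and -1.20 ± 0.57 (SD, n = 4). GABRP, GABRR1 and GABRR2 stood later in K562 than in U2OS on every array and are taken up below.

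Both GABA-B genes had positive means. GABBR1 encodes the subunit that binds GABA and GABBR2 the subunit that couples to G proteins. GABBR2 read 1.66 (new sorting), 1.36 (old sorting) and 1.24 (labelled 44k) on the K562 arrays, and 0.74 and 0.85 on the manual U2OS arrays and 1.03 and 0.81 on the automated ones. It was called early in both lines, the lines did not overlap, and the difference of 0.56 ± 0.27 (SE; adjusted p = 0.23) was not called. GABBR1 stood at 0.48 ± 0.52 (SD, n = 3) for K562 and 0.39 ± 0.16 (SD, n = 4) for U2OS and was called in neither.

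All 3 autosomal AMPA receptor genes were late in both lines. GRIA2, whose edited subunit limits calcium entry, was the least late, at -1.04 ± 0.80 (SD, n = 3) for K562 and -0.89 ± 0.28 (SD, n = 4) for U2OS. GRIA1 stood at -1.73 ± 0.39 (SD, n = 3) and -1.98 ± 0.16 (SD, n = 4). GRIA4 stood at -2.47 ± 0.74 (SD, n = 3) and -1.45 ± 0.48 (SD, n = 4), and its difference of -1.02 ± 0.42 (SE; adjusted p = 0.16) was not called.

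Kainate receptor genes differed among themselves. GRIK2 was late in both lines, at -2.19 ± 1.11 (SD, n = 3) for K562 and -2.33 ± 0.17 (SD, n = 4) for U2OS. GRIK5, a high-affinity subunit, was early in both, at 1.37 ± 0.22 (SD, n = 3) and 0.88 ± 0.59 (SD, n = 4). GRIK3 was called late in U2OS at -0.73 ± 0.40 (SD, n = 4) and was not called in K562 at 0.09 ± 0.32 (SD, n = 3). GRIK1 and GRIK4 were called different in opposite directions, as given below.

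Of the 7 NMDA receptor genes, 2 were called late in each line. GRIN2B, a glutamate-binding subunit abundant before birth, and GRIN3A, a glycine-binding one, were late in both. GRIN1, the subunit every NMDA receptor needs, read 0.58 (new sorting), -0.04 (old sorting) and -0.95 (labelled 44k) on the K562 arrays, and 1.55 and 0.23 on the manual U2OS arrays and 2.20 and 1.72 on the automated ones. It was called early in U2OS, where only GRIN2C had a higher mean. One U2OS array lay inside the K562 range, and the difference of -1.56 ± 0.52 (SE; adjusted p = 0.082) was not called. GRIN2C, a cerebellar subunit, read 1.70 (new sorting), 1.5 (old sorting) and -0.71 (labelled 44k) on the K562 arrays, and 1.69 and 1.48 on the manual U2OS arrays and 2.36 and 2.07 on the automated ones. It was the earliest receptor gene in U2OS. The array labelled 44k, with 1 of its 2 probes, stood apart from the other K562 arrays, and the late channel was not well above background on any K562 array. GRIN2D was early in U2OS at 0.68 ± 0.22 (SD, n = 4). GRIN2A was called in neither line, at -0.58 ± 0.27 (SD, n = 3) and -0.46 ± 0.50 (SD, n = 4). GRIN3B had a single probe that was above background in neither channel on the K562 arrays, so it gives no level there. The sign of the NMDA median in K562 depended on processing: it was -0.58, but 0.12 with normexp background correction and 0.17 after loess. The kainate median in K562 likewise turned from 0.09 to -0.10 with normexp.

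Of 8 metabotropic genes, 5 were late in K562 and 6 in U2OS. GRM5 of group I, whose receptors signal through phospholipase C, was late in both, as were GRM6, GRM7 and GRM8 of group III, which lower cyclic AMP. GRM8, found at presynaptic terminals, read -3.31 (new sorting), -2.23 (old sorting) and -2.44 (labelled 44k) on the K562 arrays, and -1.91 and -2.19 on the manual U2OS arrays and -2.49 and -2.30 on the automated ones. It was the latest receptor gene by its K562 mean, -2.66 ± 0.57 (SD, n = 3), which lay within the spread of GABRA6. GRM7 stood at -2.34 ± 0.84 (SD, n = 3) and -2.25 ± 0.34 (SD, n = 4) over a span of 866 kb. GRM4 was early in both lines, although the array labelled 44k gave -0.13 beside 1.22 and 1.14. GRM2 was called in neither line. GRM3, its partner in group II, differed between the lines.

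Which receptor genes were copied at different times in the 2 lines was asked of all 7 arrays. Of the 41 genes, 7 were called different, or 17.1%, beside 13.1% of all genes tested. GRIK1, GABRA5, GABRG3 and GRM3 were earlier in K562 (4 genes, background 5.91%), and GRIK4, GABRP and GABRR1 were later in K562 (3 genes, background 7.19%). The share is near the background. Values of the lines did not overlap for 11 genes, or 26.8%, beside 28.4% of all genes. The median absolute difference was 0.46 for receptor genes and 0.53 for all genes. No slide held both lines, and the K562 arrays differ in sorting method and design, so line cannot be told apart from slide. With slide as a random block the count of receptor genes called was again 7. That fit cannot separate line from slide either, since every slide held a single line.

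GRIK1, a low-affinity kainate subunit at chr21:30916839-31304545, was earlier in K562. It read 0.84 (new sorting), 0.58 (old sorting) and 1.30 (labelled 44k) on the K562 arrays, and -1.38 and -1.24 on the manual U2OS arrays and -1.38 and -1.5 on the automated ones. Every K562 array was above 0 and every U2OS array below -1.2. The difference was 2.28 ± 0.29 (SE; adjusted p = 0.0015). GRIK1 was the one receptor gene called early in K562 and late in U2OS.

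GABRA5, an alpha subunit of hippocampal receptors outside synapses, lies at chr15:27114383-27194356. It read 0.53 (new sorting), -0.51 (old sorting) and 0.96 (labelled 44k) on the K562 arrays, and -1.47 and -2.08 on the manual U2OS arrays and -2.22 and -1.97 on the automated ones. All K562 arrays were higher than all U2OS arrays, by 2.26 ± 0.39 (SE; adjusted p = 0.0055). The old-sorting array was the lowest of the K562 values and the array labelled 44k the highest.

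GABRG3, a gamma subunit with 52 probes over 561 kb at chr15:27216967-27777844, is its neighbour. It read 0.38 (new sorting), -0.14 (old sorting) and 0.11 (labelled 44k) on the K562 arrays, and -1.65 and -2.01 on the manual U2OS arrays and -2.45 and -2.43 on the automated ones. The K562 values stayed near 0 and within a narrow range, and the difference was 2.25 ± 0.32 (SE; adjusted p = 0.0022).

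GRM3, a presynaptic and glial receptor at chr7:86285952-86493850, read -0.53 (new sorting), 0.33 (old sorting) and -0.005 (labelled 44k) on the K562 arrays, and -1.84 and -2.18 on the manual U2OS arrays and -2.31 and -2.17 on the automated ones. K562 arrays lay on both sides of 0 and U2OS arrays were all below -1.8. The difference was 2.06 ± 0.31 (SE; adjusted p = 0.0029). With normexp background correction it was 0.98 (adjusted p = 0.065) and no longer called.

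GRIK4, a high-affinity kainate subunit at chr11:120535404-120852909, ran the other way. It read -1.96 (new sorting), -1.68 (old sorting) and -0.88 (labelled 44k) on the K562 arrays, and 0.51 and -0.29 on the manual U2OS arrays and 0.90 and 0.83 on the automated ones. All K562 values were below all U2OS values, and the difference was -2.0 ± 0.40 (SE; adjusted p = 0.01). The second manual array was the one U2OS array below 0.

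GABRP, a pi subunit found mainly outside the brain, lies at chr5:170214178-170239226. It read -1.96 (new sorting), -0.52 (old sorting) and -0.89 (labelled 44k) on the K562 arrays, and 0.37 and 0.10 on the manual U2OS arrays and 1.11 and 0.68 on the automated ones. The lines did not overlap, with a difference of -1.69 ± 0.41 (SE; adjusted p = 0.025). This call rests on single arrays: adjusted p was 0.066 without the new-sorting K562 array and 0.072 and 0.070 without the first and second automated arrays.

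GABRR1, a rho subunit of retinal receptors at chr6:89898851-89925624, read -0.35 (new sorting), 0.18 (old sorting) and -0.42 (labelled 44k) on the K562 arrays, and 1.16 and 1.24 on the manual U2OS arrays and 1.59 and 1.20 on the automated ones. The U2OS arrays were close together and above all K562 arrays, and the difference was -1.49 ± 0.30 (SE; adjusted p = 0.0099). With normexp correction it was -0.78 (adjusted p = 0.063).

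When only probes well above background in both channels entered, 32 receptor genes remained and GRM3 was the one gene still called different. The 6 other differences kept their direction, with adjusted p from 0.055 (GABRG3) to 0.38 (GABRR1). GRIN2B came nearest to a call among the rest with lines that did not overlap, at -1.23 ± 0.40 (SE; adjusted p = 0.074).

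**Figure D2:**
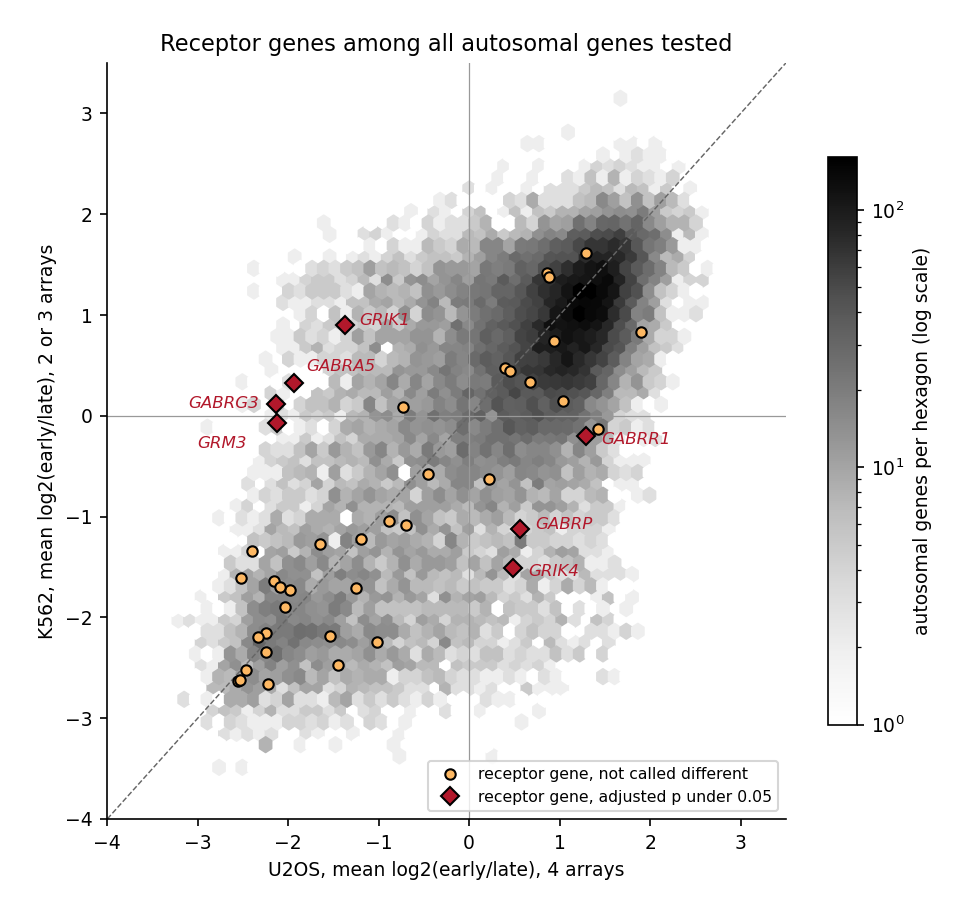
Mean log2(early/late) of each gene in U2OS (horizontal) and K562 (vertical), with grey hexagons for the 23738 genes tested, circles for receptor genes and red diamonds for the 7 called different. Many receptor genes lie at the lower left, late in both lines, and the 4 genes earlier in K562 lie above the dashed line of equal values at the left.

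Across the 41 genes, the K562 and U2OS means had a Pearson correlation of 0.72, beside 0.68 over all genes. The points share arrays within a line. Receptor genes spanned 4.27 log2 units in K562 and 4.46 in U2OS from the latest to the earliest.

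Some GABA-A genes lie beside each other on a chromosome. At 4p12 (chr4:46043192-47428178), GABRG1, GABRA2, GABRA4 and GABRB1 averaged -1.69 and -2.15. Their order along the chromosome was also an order in the difference between lines, from 1.06 at GABRG1 through 0.91 and 0.51 to -0.65 at GABRB1, none of them called.

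At 15q12, GABRA5 and GABRG3 lie 22.6 kb apart and were alike in both lines, with K562 means of 0.33 and 0.11 and U2OS means of -1.94 and -2.13. Both were called earlier in K562, by 2.26 and 2.25.

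At 6q15 (chr6:89898851-90024395), GABRR1 and GABRR2 both stood later in K562. GABRR2, a rho subunit, read 0.14 (new sorting), 0.48 (old sorting) and -0.17 (labelled 44k) on the K562 arrays, and 1.39 and 1.13 on the manual U2OS arrays and 1.04 and 0.60 on the automated ones. The lines did not overlap, but the difference of -0.89 ± 0.32 (SE; adjusted p = 0.1) was not called.

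**Figure D3:**
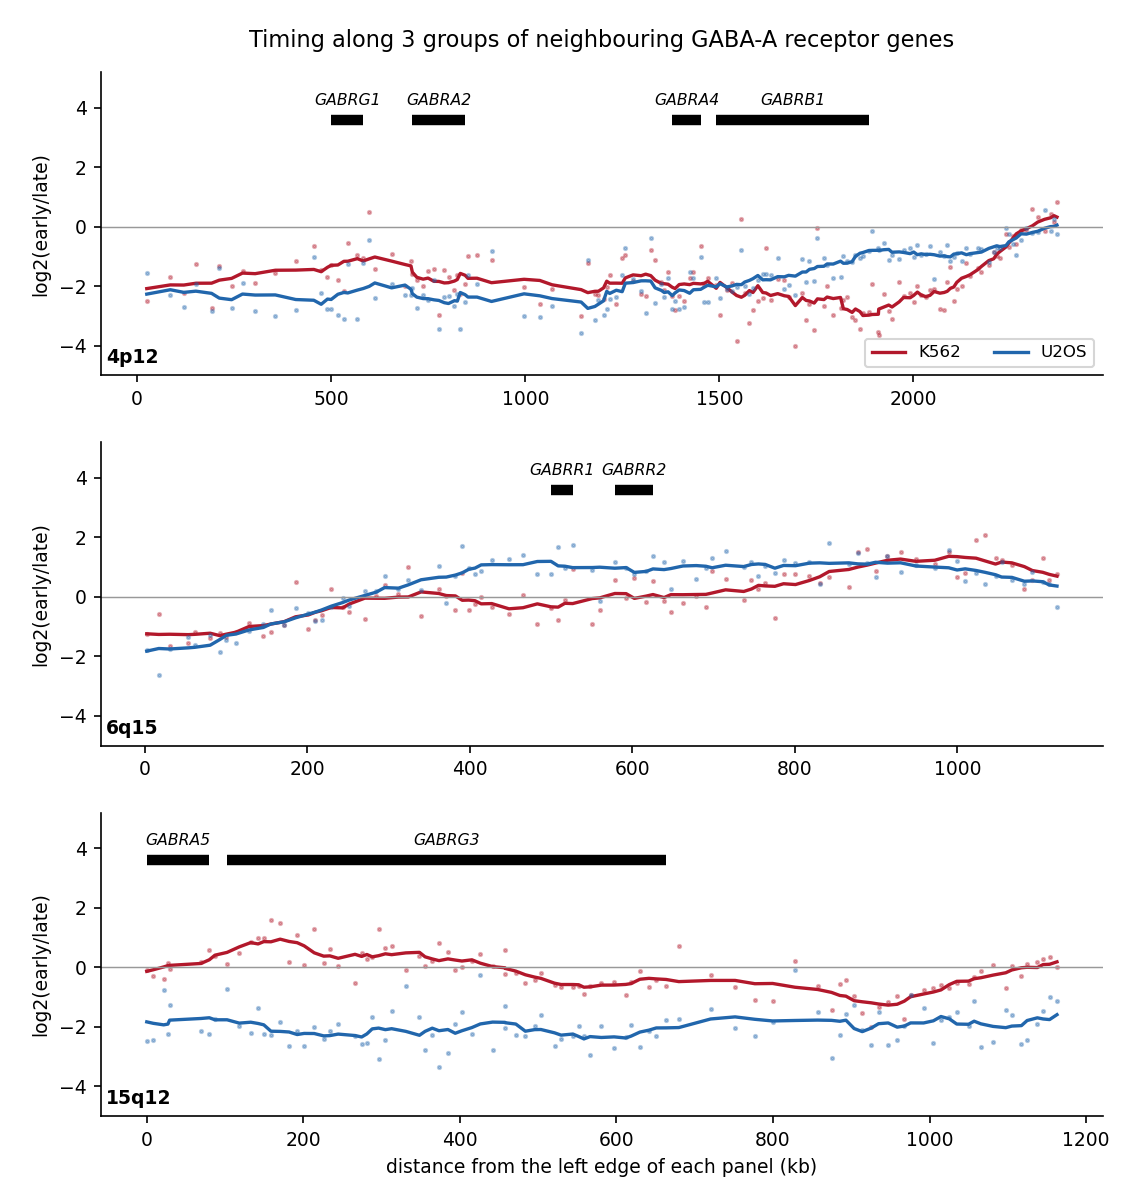
Log2(early/late) of single probes (points, mean of the larger arrays of a line) and their running mean (lines) along neighbouring GABA-A genes and the 500 kb beyond them, the 15q12 panel starting at GABRA5; the horizontal axis is distance in kb and black bars mark genes. K562 (red) lies above U2OS (blue) along GABRA5 and GABRG3, and below it at GABRR1.

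Most receptor genes had the sign of the DNA around them. On the 6 larger arrays, probes of other names within 500 kb had the same sign as the gene for 35 of 41 genes in K562 and 38 in U2OS. Across genes, gene and flank means had a Pearson correlation of 0.85 in K562 and 0.93 in U2OS, and their differences between lines 0.78. Gene and flank share arrays and are neighbours on them, so these describe a local pattern and carry no p. Genes were later than their flanks for 26 of 41 in K562 and 29 in U2OS, and the median of gene minus flank over all 41 was -0.22 and -0.21. GRIN2B had the largest such gap in K562, with -2.28 for the gene and -0.46 for its flanks. GRM3 moved with its surroundings: flanks stood at 0.19 in K562 and -1.72 in U2OS. GRIK1 did so less, with a difference between lines of 2.08 in the gene and 0.24 in its flanks.

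Some long receptor genes changed in timing along their length and others stayed nearly flat. Each of the 21 genes with at least 10 probes was cut into 5 parts of equal length, numbered by rising position. The 3 longest were among the flat ones: the parts of GRM7 stayed within 0.39 of each other in K562 and 0.25 in U2OS, those of GRM8 within 0.43 and 0.58, and those of GRIK2 within 0.33 and 0.37. Over all arrays of K562 and of U2OS, early-channel spots well above background were 47.5% and 41.1% for GRM7. They were 59.7% and 44.6% for GRM8 and 34.5% and 25.9% for GRIK2. The shares were 87.3% and 91.9% for GRIK1, 52% and 75.6% for GRM5, and 40.3% and 93.4% for GRIN2B. The part of signals near background in flat profiles was not tested. Other genes ran from earlier to later or the reverse. In K562, GRIK1 went from 1.09 in the first part to -0.27 in the last (1.28 to -0.19 and 0.91 to -0.35 on the new- and old-sorting arrays). In U2OS the same gene went from -0.38 to -2.21. The difference between lines was therefore present in all 5 parts. GABRG3 fell from 0.83 to -0.59 in K562, while its parts in U2OS stayed within 0.34 of each other. GRM3 ran upward in K562, from -1.20 to 0.86, in the same direction on both arrays (-1.65 to 0.62 and -0.74 to 1.11). GRIN2B changed along its length in U2OS, from 0.29 in the first part to -1.78 in the last, and in K562 its parts stayed within 0.60. GRM5 ran from -0.63 to -2.47 in K562 and from -0.50 to -1.70 in U2OS. GRIN2A, a glutamate-binding NMDA subunit, ran upward in both lines, from -1.08 to 0.37 in K562 and from -0.94 to 0.17 in U2OS. Of the 21 genes, 5 joined parts on both sides of 0 in K562 (GRIK1, GABRG3, GRM3, GRIN2A and GRIK3) and 2 in U2OS (GRIN2A and GRIN2B).

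**Figure D4:**
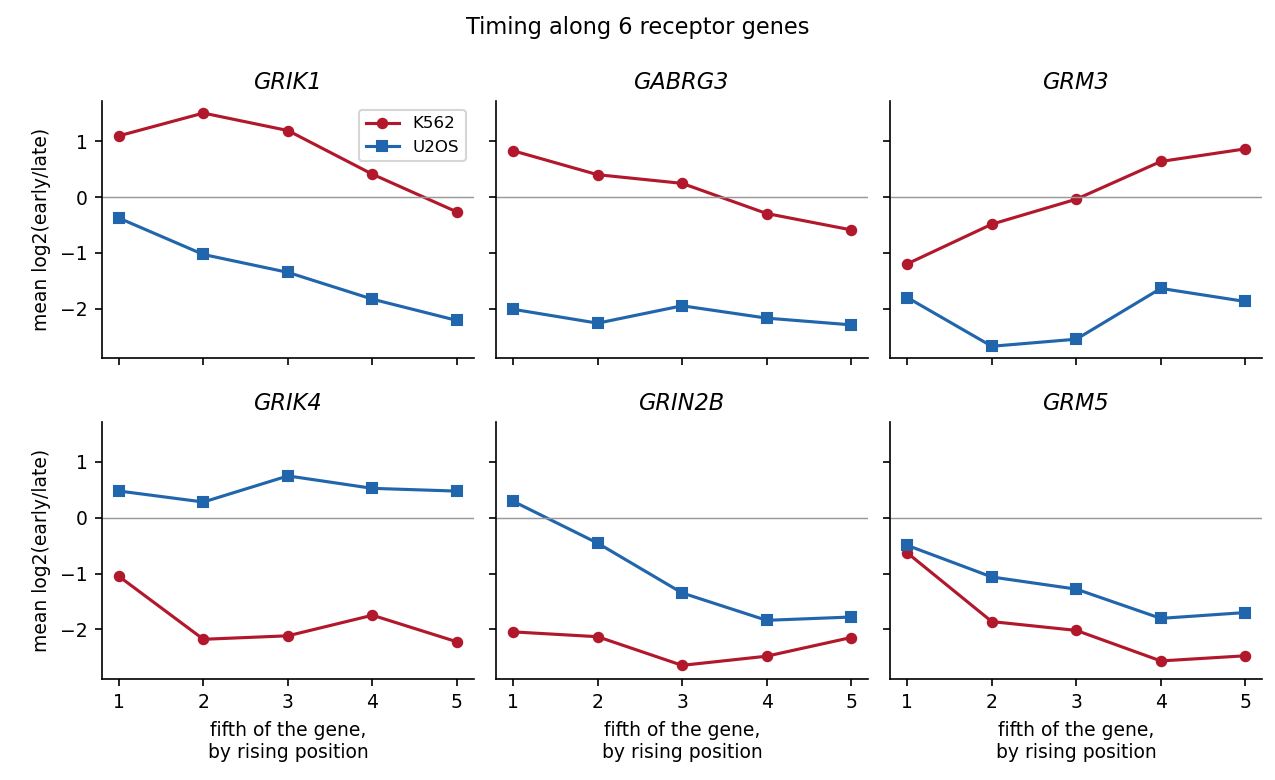
Mean log2(early/late) in 5 equal parts of 6 long receptor genes, numbered by rising position on the chromosome, for K562 (red circles, 2 larger arrays) and U2OS (blue squares, 4 arrays). GRIK1 falls in both lines, GRM3 rises in K562, and GRIN2B falls in U2OS.

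Length and timing were compared through the span of a gene's probes. Receptor genes were long, with a median span of 136 kb beside 13.4 kb for all genes. Spearman's rho between span and timing over the 41 genes was -0.37 in K562 and -0.38 in U2OS, beside -0.07 and -0.14 over all genes. Of the 18 genes over 200 kb, 12 were late in K562 and 15 in U2OS (66.7% and 83.3%), where 53% and 52.3% of all genes of that span were late. Of the 14 under 50 kb, 5 and 4 were late (35.7% and 28.6%), beside 15.5% and 15.9% of all genes of that span. The 9 between 50 and 200 kb had medians of -1.08 and -1.94, beside 0.69 and 0.70. Among those over 200 kb, 6 were not called late in K562: GABBR2 and GRIK1, which were early, and GABRG3, GRIK3, GRIN2A and GRM3. In U2OS 3 were not called late: GABBR2, early again, and GRIK4 and GRIN2A. Span understates a gene with few probes, and all single-probe genes fall in the shortest class.

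**Figure D5:**
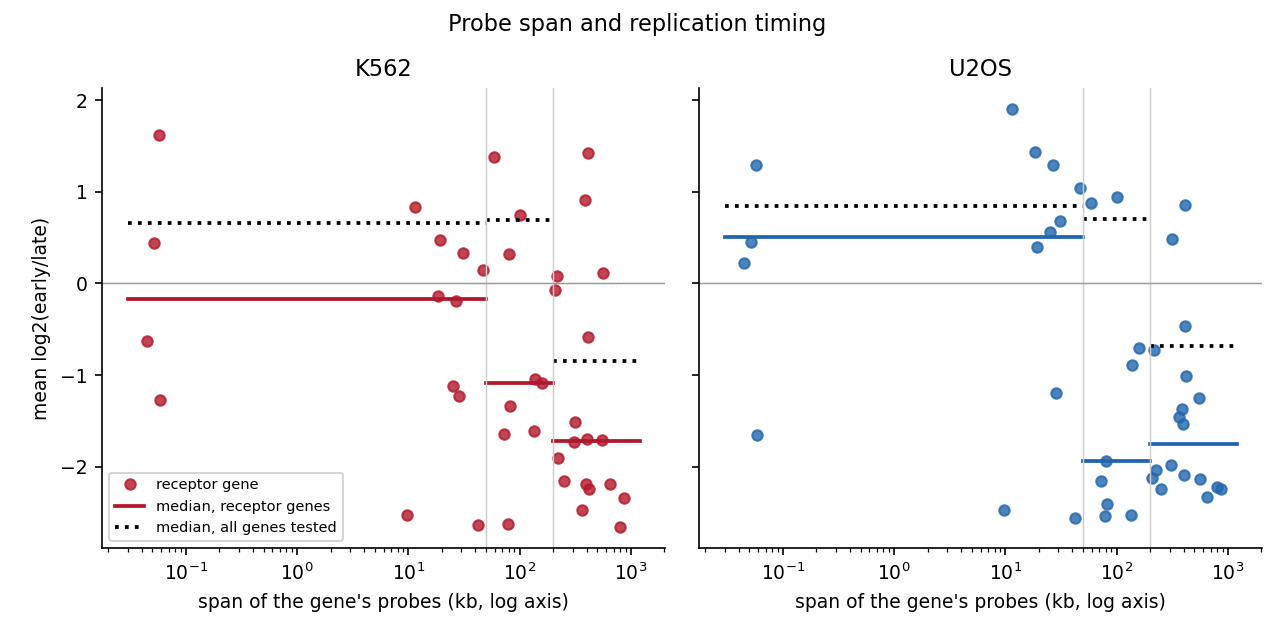
Mean log2(early/late) of each receptor gene (points) against the span of its probes in kb on a log axis, for K562 and U2OS; solid lines are medians of the receptor genes and dotted lines medians of all genes tested, in 3 span classes. In each class and line the receptor median lies below that of all genes.

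Sorting methods and array designs in K562 had 1 array each, so their values stand side by side with no test. The median receptor gene was -1.72 on the new-sorting array, -1.06 on the old-sorting array and -0.90 over the 38 genes of the array labelled 44k. The SD across receptor genes was 1.75, 1.05 and 1.23. Late genes such as GABRB2 (-3.23 and -1.11) and GRIK2 (-3.31 and -1.08) were much lower on the new-sorting than on the old-sorting array. Negative values were found for 28 and 29 of 41 genes and, on the array labelled 44k, for 29 of 38, and 12 of the 41 genes had both signs among the K562 arrays. The median absolute deviation of all probes was also larger on the new-sorting array, at 2.29 beside 1.68 and 1.67, and its part in these values was not tested.

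Manual and automated handling of U2OS were compared over 2 arrays each. No receptor gene and no other gene had an adjusted p under 0.05 in limma (0% of 23754 genes), and the lowest adjusted p was 0.18 among receptor genes and 0.14 overall. At an unadjusted p under 0.05 there were 5 receptor genes, beside 19.3% of all genes. GABRD, GRIN2A and GRM5 had higher values on the automated arrays and GRIA4 and GABRR3 lower ones. GRIN2A was closest to 0 on the automated arrays, at -0.02 beside -0.89 on the manual ones. Values of the methods did not overlap for 24 of the 41 genes, beside 54.1% of all genes. Both manual arrays were on 1 slide and each automated array on its own, so handling cannot be told apart from slide. With 2 arrays a method, the count of 0 does not show that the methods gave equal values. With normexp correction, 23 of the 41 receptor genes were called, beside 8461 of all genes, of which 23754 were tested in the main fit. Of the receptor calls 5 were higher and 18 lower on the automated arrays, or 21.7% higher, beside 59.3% of the calls over all genes. With probes above background in both channels 7 of 32 were called, all lower, where 3.25% of the 2341 calls over all genes were higher. The share of all genes called under that filter was not computed.

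Of the 54 other genes of the pathway, 9 were called different between the lines, or 16.7%, beside 13.1% of all genes tested. Of these, 3 were earlier in K562 (background 5.91%) and 6 later (background 7.19%). The share is near the background. GLUL, which makes glutamine from glutamate, had the largest difference, with 1.64 in K562 and -0.85 in U2OS (adjusted p = 0.0012). HOMER1, a scaffold for group I metabotropic receptors, and GLRA3, a glycine receptor subunit, were also earlier in K562, by 1.93 and 1.70. Among the 6 later in K562 were KCTD16 (-2.0), GRIP1 (-1.51), GLRB (-2.07), SLC1A2 (-1.16) and GAD2 (-1.23). KCTD16 is an auxiliary subunit of GABA-B receptors, GRIP1 binds AMPA receptors, SLC1A2 takes up glutamate, and GAD2 makes GABA.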

How the data were processed

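Per the file headers, the spot intensities and the log10 ratio of each array come from Agilent Feature Extraction 11.5.1.1 (CGH protocol, probes placed on hg19); the submitters' processing notes name version 9.1. The deposited processed intensity of each channel is background-subtracted and dye-normalized by that software, per the file headers, with substitute values where a spot is not above background. The deposited log10 ratio (late over early) and the raw mean and background intensities were used for alternatives alone.

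Here log2(early/late) was the log2 ratio of processed signals, without control spots and spots with an outlier mark. Repeated probes were averaged, arrays centred on the median autosomal probe, and probes averaged per gene name. Genes needed a value on 2 arrays of each line. limma 3.58.1 in R 4.3.3 fitted K562 (n = 3) and U2OS (n = 4) means over 23738 genes, and handling over 4 arrays and 23754 genes, with Benjamini-Hochberg adjustment. The fits were tested on simulated data, where the line fit missed part of the shifts put in and the handling fit called none of them.

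The receptor genes, lists and compared parts were chosen with earlier results of these data known. Values on every array are given for genes called different without overlap, the 2 earliest and 2 latest genes of each line and the gene with the most probes in each group of neighbours; other genes are given by role. Manual array 1 and automated array 1 deviated from their group means with a correlation of 0.02 over genes, so equal numbers in the titles were not taken as pairs. duplicateCorrelation gave no value for the slide block, since a single slide holds more than 1 array; a correlation of 0.3 from restricted maximum likelihood was used. The alternatives covered background correction, normalization, probe and gene filters, scaling, blocks and each array left out. The deposited log ratio and the removal of substitute signals were added after seeing the data. Promoter sequences matched too few of the genes by symbol and were not used. Some genes and probes that the naming rule covers are not reported here; counts and medians include them.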

Additional observations from a re-analysis of the deposited data

Results flagged for a closer look

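In 7 receptor genes the timing of K562 and U2OS differed at an adjusted p under 0.05 (limma, 3 against 4 arrays, no overlap between the lines). That was 17.1% of the receptor genes, beside 13.1% of all genes tested, so the share is near the background. The K562 minus U2OS differences in log2(early/late) were 2.28 for GRIK1, 2.26 for GABRA5, 2.25 for GABRG3 and 2.06 for GRM3, and -2.0 for GRIK4, -1.69 for GABRP and -1.49 for GABRR1. All 3 K562 arrays lay on the same side of all 4 U2OS arrays in each of them. Such a lack of overlap was found for 26.8% of receptor genes, beside 28.4% of all genes. With only probes well above background in both channels, GRM3 was the one gene still called different.

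Among the 41 receptor genes, the 4 U2OS arrays held a single far value in 2. For GABRA2 the gap to the nearest array made up 0.873 of the whole range, with the first manual array at -2.17 and the others between -2.68 and -2.62. For GRM7 it made up 0.848, with the first manual array at -1.74 and the others between -2.45 and -2.34. Chance gives such a gap in about 1 of 20 groups.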

How the results depend on the processing

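Of 133 alternative values of the counts, medians and span relations, 121 stayed close to the value given, and no median or span relation changed direction. Counts have no direction. They were taken as close within a fixed ratio, and the handling counts of 0 are among the 121. A median or span relation was close if it moved by less than its SD between arrays, which was 0.44 for the K562 median and 0.23 for the U2OS median. With normexp, 23 genes differed by handling and the U2OS median was -0.79. Limiting probes to those well above background in both channels left 32 genes, of which 1 differed between the lines, 13 were called early or late in K562 and 7 differed by handling. Probes of both designs gave a U2OS median of -1.50. Spearman's correlation of span and timing in U2OS was -0.34 with normexp and with probes above background, -0.30 with at least 3 probes per gene or probes of both designs, and -0.31 without substitute signals. Leaving out each array gave -0.41 to -0.35 for it, 6 to 8 genes different between the lines, 23 to 28 called in K562 and 33 to 35 in U2OS, and medians of -1.31 to -0.96 in K562 and -1.37 to -1.30 in U2OS. The handling count was also 0 with a replicate block, with or without arrays scaled alike, and without each array; at 2 arrays a method these zeros say nothing about stability. Early calls ranged from 2 (normexp) to 7 (mean centring) in K562, and in U2OS from 5 (probes of both designs, or a value of at least 1) to 13 (mean centring). Gene differences kept direction in all 126 refits and their call in 115. Over all genes, 3108 differed between the lines, but 573 with probes above background in both channels. The count was 1625 without the new-sorting K562 array and 2121 without the old-sorting one. It was 2041 and 1944 without the first and second automated arrays. Fewer genes could be tested under the filter and without either of those K562 arrays, with 32 and 38 receptor genes in place of 41. The shares of all genes called in those fits were not computed, so part of these lower counts may be fewer genes tested. Calls between handling methods, 0 over all genes, became 8461 with normexp, 2341 with bright probes and 396 with at least 3 probes per gene. The causes were not tested. Signals near background limit the values of late genes in the early channel and of early genes in the late channel. The late channel was weakest on the array labelled 44k, with 9.0% of spots well above background. The early channel was weakest on the old-sorting K562 array, with 45.6%.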

Other observations

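The GC content of the probes also ran with timing among the receptor genes. Spearman's rho between a gene's mean probe GC content and its log2(early/late) was 0.43 in K562 and 0.39 in U2OS over the 41 genes, beside 0.02 and 0.13 over all genes tested. Pearson's correlation over the 41 genes was 0.28 in K562 and 0.42 in U2OS, beside 0.07 and 0.15 over all genes. GRIN1 (42.5% GC, 2 probes) was among the early genes of U2OS, and GABRA5 (34%) was called late there. In K562 the order of this pair was the reverse, at -0.13 for GRIN1 and 0.33 for GABRA5. Probe length varied: the single probe of GRIN3B, with 51.1% GC, spanned 0.045 kb and that of GRM6 0.059 kb. Genes are not replicates, so the relation of GC content and timing is a description with no test.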
